A study of Mus musculus with 2 samples.

Results

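The Cyp4a genes encode the CYP4A fatty acid hydroxylases, and they were taken as every gene symbol in the count files made of Cyp4a, a number and at most 1 further letter. This rule found 8 of 43280 gene symbols, Cyp4a10, Cyp4a12a, Cyp4a12b, Cyp4a14, Cyp4a29, Cyp4a30b, Cyp4a31 and Cyp4a32, and used no measured value. The reads came from 1 library of mature hepatocytes (MHs) and 1 library of small hepatocytes (SHs), both poly(A) RNA of freshly isolated liver cells from the same C57BL6 mice, which the methods call healthy, labelled as 20 weeks old. The methods name 3 mice for this experiment, without saying whether their cells were pooled, and a younger age for the mice used in the study. Mice of both sexes were used in the study, and the labels give no sex for these. MHs were the cells that sedimented at low speed and were cleared of dead cells on Percoll, without sorting. SHs, described as hepatocyte progenitors of small size, came from the lighter fraction and were sorted as CD31-, CD45- and EpCAM- cells that were ICAM-1+. The comparison asked how the expression of these hydroxylases differed between SHs and MHs.

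CYP4A enzymes sit in the endoplasmic reticulum and add a hydroxyl group to the far (omega) end of medium- and long-chain fatty acids. Alcohol and aldehyde dehydrogenases then turn that end into a carboxyl group, and peroxisomes shorten the dicarboxylic acids that result. In mouse liver, Cyp4a10 and Cyp4a14 are classic target genes of the nuclear receptor PPARα, whereas Cyp4a12a and Cyp4a12b are known for higher expression in males, and CYP4A12A for making 20-HETE from arachidonic acid.

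All 8 genes are protein coding and lie in a single cluster on chromosome 4 (mm10, GENCODE M21 annotation), from Cyp4a29 at 115242084 to the end of Cyp4a32 at 115621602. Cyp4a14 (115486200 to 115496142) is on the minus strand and the other 7 genes are on the plus strand. Cyp4a12a (115299046 to 115332815) and Cyp4a12b (115411624 to 115439034) are 98.5% identical in coding sequence. Cyp4a10 (115518264 to 115533649) is 96.6% identical to Cyp4a31 (115563649 to 115579015) and 97.2% identical to Cyp4a32 (115600969 to 115621602). Cyp4a14 is 75.1% identical to Cyp4a10 and 75.5% identical to Cyp4a12a. The start of the coding sequence shows how near these copies are, and therefore which reads can be told apart. Below are the first 60 coding bases of the 6 genes with at least 10 reads, from the GENCODE M21 transcripts. Capitals mark bases that differ from Cyp4a12a in the line of Cyp4a12b, from Cyp4a10 in the lines of Cyp4a31, Cyp4a32, Cyp4a14 and Cyp4a12a, and from Cyp4a12a in the line of Cyp4a10.
Cyp4a12a: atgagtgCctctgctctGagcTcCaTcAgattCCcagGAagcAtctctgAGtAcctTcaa
Cyp4a12b: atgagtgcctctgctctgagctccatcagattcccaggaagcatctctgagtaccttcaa
Cyp4a10: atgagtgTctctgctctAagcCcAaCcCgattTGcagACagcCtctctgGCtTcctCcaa
Cyp4a32: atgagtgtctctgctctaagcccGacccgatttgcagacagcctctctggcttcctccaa
Cyp4a31: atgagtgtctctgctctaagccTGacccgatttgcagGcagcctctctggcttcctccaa
Cyp4a14: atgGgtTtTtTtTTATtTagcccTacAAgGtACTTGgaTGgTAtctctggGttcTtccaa

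Over these 60 bases, Cyp4a12b had 0 differences from Cyp4a12a. Cyp4a32 had 1 difference from Cyp4a10 and Cyp4a31 had 3, whereas Cyp4a14 had 24. The most conserved stretch of a cytochrome P450 is the loop with the cysteine that binds the heme iron. It is shown for 1 gene of each group of near copies, with the 30 bases of the P450 signature in capitals and 15 bases on either side. The signature spans coding bases 1345 to 1374 of Cyp4a10, 1342 to 1371 of Cyp4a12a and 1339 to 1368 of Cyp4a14.
Cyp4a10: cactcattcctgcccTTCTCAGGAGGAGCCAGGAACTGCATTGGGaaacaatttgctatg
Cyp4a12a: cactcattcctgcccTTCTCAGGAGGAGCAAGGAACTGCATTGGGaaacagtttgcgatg
Cyp4a14: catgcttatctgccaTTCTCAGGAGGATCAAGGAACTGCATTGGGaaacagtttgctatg

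In this window, Cyp4a31 and Cyp4a32 were the same as Cyp4a10, and Cyp4a12b was the same as Cyp4a12a. Cyp4a12a had 3 differences from Cyp4a10, and Cyp4a14 had 9. Of all 100-base windows of the Cyp4a12a transcript, 64.4% matched a window of Cyp4a12b with at most 2 mismatches, the number that the methods allow in the alignment. For Cyp4a10, 48.1% of the windows matched another Cyp4a gene or pseudogene, for Cyp4a32 56.2% and for Cyp4a31 24.7%. For Cyp4a14, 0% did, and 5.22% of its 50-base windows did. The reads of Cyp4a14 were therefore the least exposed to the division of reads among copies, and Cyp4a12a with Cyp4a12b, and Cyp4a10 with Cyp4a31 and Cyp4a32, are also given as sums. The methods allow up to 10 hits per read in the alignment. Read lengths, and how the deposited counts treat reads with several hits, are not given in the sources used here.

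The counts summed to 16979136 reads for MHs and to 42356444 for SHs, so that 3 reads corresponded to 0.177 reads per 1000000 counted reads (RPM) in MHs and to 0.0708 in SHs. With 1 library of each kind there was no replicate check and no test. Every 95% interval below is exact and covers counting error only, and reads without molecular identifiers are not independent molecules. Of 6 hepatocyte genes, 0 differed 1.5-fold, with Alb at 55706 RPM in MHs against 60855 in SHs. All 12 ZONE3 (pericentral) markers were at least 1.5-fold lower in SHs, with a median log2 ratio of SHs over MHs of -1.82. All 12 ZONE1 (periportal) markers had an interval above 0, with a median of 0.47, but only 1, Aldh1b1, was 1.5-fold higher. Among all 15521 genes with at least 10 reads, 6.2% were 1.5-fold lower and 3.5% higher with an interval on that side of 0. An interval above 0 was found for 2601 of them. The summed level of 10 endothelial markers was 86.9 RPM in MHs against 4.65 in SHs, that of 9 macrophage markers 19.0 and 0.921, and that of 10 stellate cell markers 21.3 and 2.27. Of these markers, Lyve1, Marco and Colec11 had 0 reads in SHs. The sum of 6 cholangiocyte markers was 14.0 and 14.1 RPM, with Cftr at 0 in SHs. Most of these reads were of Spp1 and Sox9, whose log2 ratios, -0.33 (-0.63 to -0.02) and 0.50 (0.16 to 0.85), lay on opposite sides of 0. Epcam, Krt19, Krt7 and Cftr had at most 6 reads in either library. Of the genes used in the sort, Pecam1 (CD31), Ptprc (CD45) and Epcam had 73, 9 and 6 reads in MHs and 8, 5 and 1 in SHs, while Icam1, the positive marker, was at 7.66 and 6.52 RPM, and the interval of its ratio, -0.54 to 0.08, included 0. The part of these zonal and cell type differences in the Cyp4a values was not tested. In bulk RNA, fewer cells that express a gene and less RNA per cell cannot be told apart.

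As a family, the Cyp4a genes were lower in SHs. Cyp4a10, Cyp4a14 and Cyp4a31 were lower by more than 2-fold and Cyp4a32 by 1.69-fold (1.41 to 2.02). Cyp4a12a and Cyp4a12b were lower by less than 1.5-fold. Together they had 5825 reads in MHs against 10090 in SHs, or 343.1 and 238.2 RPM. The log2 ratio of the sum was -0.53 (95% interval -0.57 to -0.48), so that the level in SHs was 69.4% of that in MHs. The sum was thus 1.44-fold lower (1.39 to 1.49), short of 1.5-fold. Cyp4a12a and Cyp4a12b supplied most of these reads. Without them, the sum of the other 6 genes was 83.9 RPM in MHs against 35.9 in SHs, and the log2 ratio was -1.22 (-1.33 to -1.12), or 2.34-fold lower.

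**Figure D1:**
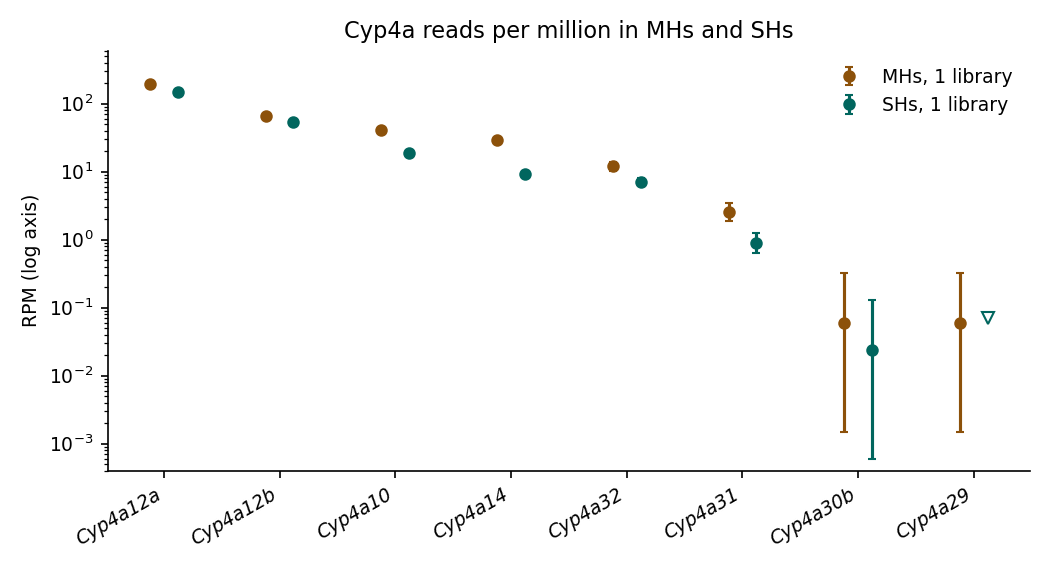
Level of each Cyp4a gene in RPM (log axis) in the library of MHs (brown) and the library of SHs (green), with exact 95% Poisson intervals. The open triangle marks the level of 3 reads where a gene had 0 reads. Each of the 6 genes with at least 10 reads lies lower in SHs, with the widest gaps at Cyp4a14 and Cyp4a31.

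Cyp4a14, a PPARα target that is low in unstimulated liver, had the lowest ratio of the members with at least 10 reads. It had 488 reads in MHs against 390 in SHs, 28.7 and 9.21 RPM. Its log2 ratio was -1.64 (-1.84 to -1.45), which is 3.12-fold lower in SHs. Of 9608 genes with 200 or more reads in all, 28 had a lower ratio than Cyp4a14. The 95% Poisson interval of its level in MHs, 26.2 to 31.4 RPM, did not overlap with that in SHs, 8.32 to 10.2 RPM.

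Cyp4a10, the other classic PPARα target of the family, had 688 reads in MHs against 792 in SHs, 40.5 and 18.7 RPM. The log2 ratio was -1.12 (-1.26 to -0.97), or 2.17-fold lower, and 62 of those 9608 genes had a lower ratio. Its near copy Cyp4a31 was at a much lower level, with 44 reads in MHs against 38 in SHs. These were 2.59 and 0.897 RPM, and the log2 ratio was -1.53, with the widest interval of the 6 genes (-2.20 to -0.87). Cyp4a32 had 203 reads in MHs against 300 in SHs, 11.96 and 7.08 RPM, with a log2 ratio of -0.76 (-1.02 to -0.49). The 3 genes summed had 55.1 RPM in MHs against 26.7 in SHs, and the log2 ratio was -1.05 (-1.17 to -0.92). This sum does not depend on how reads were divided among the genes, provided that each shared read was counted 1 time, which is not known. The interval of Cyp4a14 lay wholly under that of this sum, while the interval of Cyp4a31 overlapped with both. The intervals of Cyp4a10 and Cyp4a32 overlapped by a small margin.

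Cyp4a12a, the gene with the most reads of the family, was also lower in SHs, but by less. It had 3279 reads in MHs against 6313 in SHs, 193.1 and 149.0 RPM, with a log2 ratio of -0.37 (-0.43 to -0.31). Cyp4a12b had 1121 reads in MHs against 2256 in SHs, 66.0 and 53.3 RPM, and its log2 ratio was -0.31 (-0.41 to -0.21). Between these near copies, the intervals overlapped. Their sum had a log2 ratio of -0.36 (-0.41 to -0.30), or 1.28-fold lower. This interval did not overlap with those of Cyp4a10, Cyp4a14, Cyp4a31 or Cyp4a32.

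**Figure D2:**
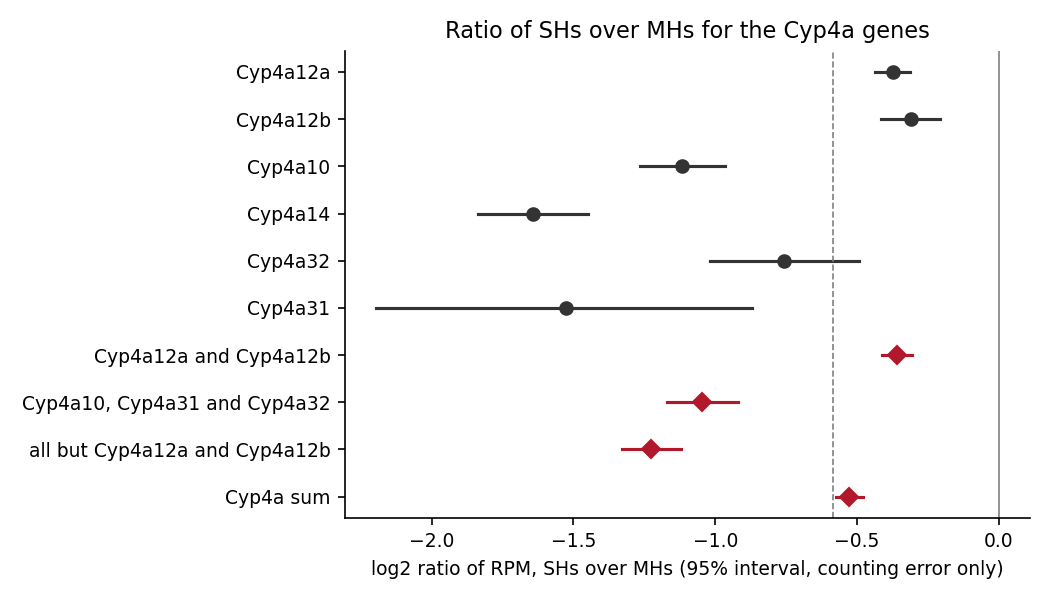
Log2 ratio of RPM in SHs over MHs for the 6 Cyp4a genes with at least 10 reads (black circles) and for sums over genes (red diamonds), with exact 95% intervals for counting error. The dashed line marks a level 1.5-fold lower, and the intervals of Cyp4a12a and Cyp4a12b lie between it and 0.

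Cyp4a29 and Cyp4a30b were under the floor of 3 reads in both libraries and get no fold. Cyp4a29 had 1 read in MHs and 0 in SHs, and Cyp4a30b had 1 read in each library. The Cyp4a pseudogene symbols in the files held few reads too. Cyp4a28-ps and Cyp4a30-ps had 0 reads in MHs and 2 reads in SHs each, and Cyp4a29-ps1 had 0 in both.

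A gene was called lower or higher when it had 10 or more reads in total, differed at least 1.5-fold and had an interval wholly on that side of 0. Of the 8 Cyp4a genes, 6 had at least 10 reads. Of these 6, 4 were called lower, namely Cyp4a10, Cyp4a14, Cyp4a31 and Cyp4a32, and 0 were called higher. Among all 15521 genes with at least 10 reads, 6.2% were called lower and 3.5% higher. With at least 200 reads, which left out Cyp4a31, 3 of 5 Cyp4a genes were called lower and 0 higher. Of the 9608 genes tested, 2.1% were called lower and 1.86% higher. The intervals of Cyp4a12a and Cyp4a12b were also wholly under 0, without reaching 1.5-fold.

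The make-up of the Cyp4a reads, which does not depend on the total of a library, differed between the cells. Cyp4a12a took 56.3% of the Cyp4a reads in MHs (95% Clopper-Pearson interval 55.0% to 57.6%) and 62.6% in SHs (61.6% to 63.5%). Cyp4a12b took 19.2% (18.2% to 20.3%) and 22.4% (21.5% to 23.2%). The share of Cyp4a10 was 11.8% in MHs (11.0% to 12.7%) and 7.85% in SHs (7.33% to 8.39%), and that of Cyp4a14 was 8.38% (7.68% to 9.12%) and 3.87% (3.50% to 4.26%). None of these 4 pairs of intervals overlapped. The share of Cyp4a31 was 0.755% in MHs (0.549% to 1.01%) and 0.377% in SHs (0.267% to 0.517%), and its intervals did not overlap either. The share of Cyp4a32, 3.48% in MHs (3.03% to 3.99%) and 2.97% in SHs (2.65% to 3.32%), had intervals that overlapped.

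**Figure D3:**
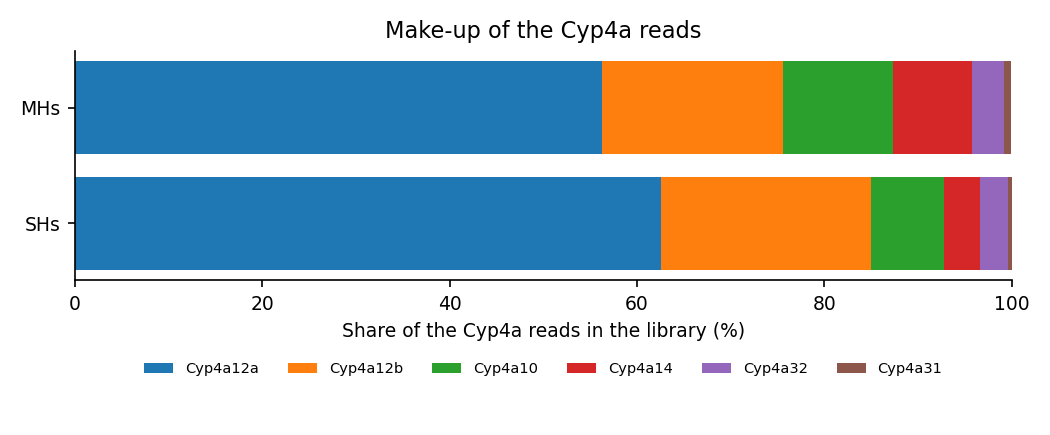
Share of the Cyp4a reads of each library taken by each of the 6 Cyp4a genes with at least 10 reads, in percent, as stacked bars for MHs and SHs. Cyp4a12a and Cyp4a12b together took 75.5% in MHs and 84.9% in SHs.

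For every 100 reads of Cyp4a12a there were 14.9 reads of Cyp4a14 in MHs (13.5 to 16.4) and 6.18 in SHs (5.56 to 6.84). For Cyp4a10, the numbers were 20.98 (19.3 to 22.8) and 12.5 (11.6 to 13.5). Both genes were thus less abundant in SHs relative to Cyp4a12a in the same library. Cyp4a12b stood at 34.2 reads per 100 of Cyp4a12a in MHs (31.9 to 36.6) and 35.7 in SHs (34.0 to 37.5), and these intervals overlapped. Relative to 100 reads of Cyp4a10, Cyp4a14 had 70.9 reads in MHs (63.0 to 79.8) and 49.2 in SHs (43.5 to 55.7).

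Levels were compared between genes as reads per kilobase of annotated exon and per 1000000 counted reads (RPKM). In MHs, Cyp4a12a had 79.7 RPKM, followed by Cyp4a12b with 27.6, Cyp4a10 with 19.2, Cyp4a14 with 11.05, Cyp4a32 with 7.78 and Cyp4a31 with 1.03. In SHs, the RPKM values were 61.5 for Cyp4a12a, 22.2 for Cyp4a12b, 8.87 for Cyp4a10, 4.61 for Cyp4a32, 3.54 for Cyp4a14 and 0.358 for Cyp4a31. Cyp4a14 thus stood above Cyp4a32 in MHs and under it in SHs, and the Poisson intervals of neighbours in these orders did not overlap in either library. The place of Cyp4a32 depends on its gene model, which has 1536 bases of exon, only 9 more than its coding sequence, whereas that of Cyp4a14 has 2601 bases, 1080 more than its coding sequence.

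Along the cluster, the genes with the lower ratios lay side by side. Cyp4a14, Cyp4a10, Cyp4a31 and Cyp4a32 are consecutive among the protein-coding genes, and Cyp4a12a and Cyp4a12b lie on the side of Cyp4a29. Cyp4a10, Cyp4a31 and Cyp4a32 are near copies that can share reads, so their ratios may not be independent. Within 200 kb of the cluster, 21 other genes are annotated, of which 7 had at least 10 reads. The interval was wholly under 0 for 2 of them, Cyp4b1, a P450 of another CYP4 subfamily, and Efcab14. It was so for 2404 of all 15521 genes with at least 10 reads. Efcab14 had 16.8 RPM in MHs against 13.8 in SHs, and the log2 ratio was -0.29 (-0.50 to -0.08). Cyp4b1, which follows Cyp4a32, had 45 reads in MHs against 3 in SHs, and the log2 ratio was -5.02 (-7.56 to -3.59). The endothelial markers were also lower in SHs, as given above, and the part of other cell types in the reads of Cyp4b1 was not tested. The intervals of the other 5, Pdzk1ip1, Gm12834, Gm12833, Gm12848 and Atpaf1, included 0. The annotated genes that overlap members were the pseudogenes Gm12837, inside Cyp4a12b, and Gm12838, inside Cyp4a30b, with 0 reads in MHs each and with 0 and 5 reads in SHs.

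**Figure D4:**
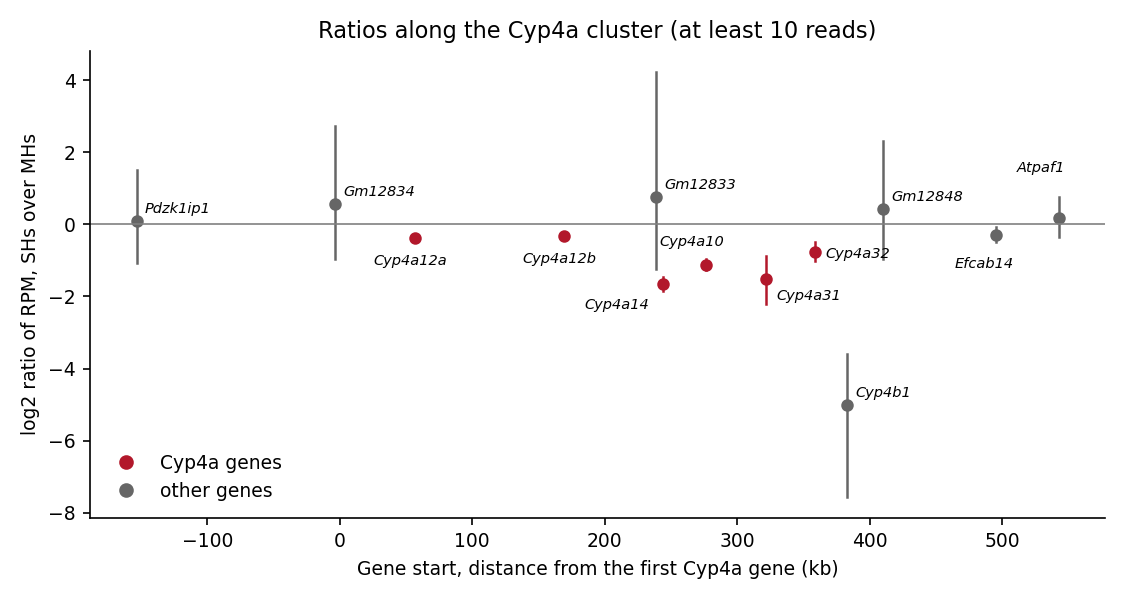
Log2 ratio of RPM in SHs over MHs against the distance of each gene's start from that of Cyp4a29, in kb, for Cyp4a genes (red) and other annotated genes (gray) with at least 10 reads, with exact 95% intervals. The 4 Cyp4a genes called lower lie next to each other, between Cyp4a12b and Cyp4b1.

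Of 70 Cyp genes with at least 10 reads, the Cyp4a genes included, 26 were called lower and 1 higher, beside 6.2% and 3.5% of all genes, with a median log2 ratio of -0.39 beside 0.02 over all genes. Among the 56 Cyp genes with at least 200 reads, ranked from the lowest ratio, Cyp4a14 was at rank 5, Cyp4a10 at 11, Cyp4a32 at 15, Cyp4a12a at 27 and Cyp4a12b at 29. The 5 Cyp genes with at least 1000 reads whose ratio was nearest that of the Cyp4a sum, out of 35 outside the family, were Cyp2c70 with a log2 ratio of -0.50, Cyp27a1 with -0.58, Cyp3a11 with -0.46, Cyp7b1 with -0.43 and Cyp2d11 with -0.42. With 1 library of each kind, this likeness rests on a single ratio per gene.

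Among the CYP4 genes outside the Cyp4a group, the 4 with the most reads, Cyp4v3, Cyp4f14, Cyp4f15 and Cyp4f13, stood near 0. Of 12 such genes, 8 had at least 10 reads, and 1 was called lower, Cyp4b1, and 0 higher, beside 6.2% and 3.5% of all genes. The median log2 ratio was -0.24 beside 0.02 over all genes, but it was -0.06 among those with at least 200 reads and -0.08 with no minimum above 1 read. Cyp4f14, a hydroxylase of leukotriene B4 and other fatty acids, had 285.6 RPM in MHs against 279.9 in SHs, and the log2 ratio was -0.03 (-0.08 to 0.02). Cyp4f15 and Cyp4f13 had log2 ratios of -0.08 (-0.15 to -0.002) and -0.06 (-0.17 to 0.06). Cyp4f17 was at a lower level, with 11.0 RPM in MHs against 8.31 in SHs and a log2 ratio of -0.40 (-0.66 to -0.13). Cyp4v3, a fatty acid hydroxylase whose human counterpart is mutated in Bietti crystalline dystrophy, was slightly higher in SHs, at 0.10 (0.07 to 0.13). Cyp4f16 had 17 reads in MHs against 22 in SHs, and Cyp4f37 had 4 and 6, too few to place their ratios on either side of 0. Cyp4f18, Cyp4f39, Cyp4f40 and Cyp4x1 had fewer than 10 reads.

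Microsomal P450s take electrons from cytochrome P450 reductase, encoded by Por, and from cytochrome b5. None of the 4 genes of this list was called, beside 6.2% of all genes called lower and 3.5% called higher. Por had 176.6 RPM in MHs against 135.4 in SHs, and the log2 ratio was -0.38 (-0.45 to -0.32), close to that of Cyp4a12a. Cyb5a had a log2 ratio of -0.30 (-0.34 to -0.26) and Cyb5b one of -0.02 (-0.06 to 0.03). Cyb5r3, the reductase of cytochrome b5, was above 0, at 0.31 (0.26 to 0.36).

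Of the 6 genes that could carry the omega-hydroxyl group on to a carboxyl group, 1 was called lower and 0 higher, beside 6.2% and 3.5% of all genes. It was Aldh3a2, the fatty aldehyde dehydrogenase that oxidizes long-chain aldehydes, which had 2269 reads in MHs against 1770 in SHs. These were 133.6 and 41.8 RPM, with a log2 ratio of -1.68 (-1.77 to -1.59), next to that of Cyp4a14. Of the 9608 genes with at least 200 reads, 25 had a lower ratio than Aldh3a2. The alcohol dehydrogenase Adh1 had 1154 RPM in MHs against 1143 in SHs, and its interval, -0.04 to 0.01, included 0. Adh4, Adh5 and Aldh9a1 had intervals above 0, with log2 ratios of 0.16, 0.12 and 0.39. Adh7 had 24 reads in MHs against 64 in SHs, or 1.41 and 1.51 RPM, and its interval, -0.60 to 0.84, included 0.

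The list of activation, transport and peroxisomal beta-oxidation, which take up the products of omega-oxidation, held 23 genes. Of these, 0 were called lower and 0 higher, beside 6.2% and 3.5% of all genes, and the median log2 ratio was -0.08. The interval was wholly under 0 for 13 of the 23 genes and wholly above 0 for 3. Among all 15521 genes with at least 10 reads, these numbers were 2404 and 2601. Ehhadh, the bifunctional enzyme of the peroxisomal cycle, had 210.4 RPM in MHs against 196.8 in SHs, and the log2 ratio was -0.10 (-0.15 to -0.04). The 3 lowest among genes with at least 200 reads were Pex11a, a peroxisomal membrane protein, at -0.49 (-0.62 to -0.35), the thiolase Acaa1b at -0.40 (-0.43 to -0.37) and Eci2 at -0.34 (-0.44 to -0.24). The 3 highest were Acot4 at 0.38 (0.10 to 0.69), Nudt19 at 0.22 and Pecr at 0.22. All these ratios were nearer to 0 than that of Cyp4a10.

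Among 27 other PPARα target genes, 6 were called lower and 0 higher, beside 6.2% and 3.5% of all genes, and the median was -0.04 beside 0.02. The 6 were Cd36, Vnn1, Cidec, Fgf21, Pdk4 and Acot1, and none of them exceeded 10.7 RPM in either library. Acot1 has near copies, such as Acot2, and its reads are uncertain. Cd36, a fatty acid transporter that endothelial cells and macrophages also express, had 10.7 RPM in MHs against 2.76 in SHs, and the log2 ratio was -1.95 (-2.30 to -1.60). The endothelial and macrophage markers were lower in SHs as well, and their part in the ratio of Cd36 was not tested. Vnn1, a pantetheinase, had 10.6 and 4.18 RPM, with a log2 ratio of -1.34 (-1.65 to -1.04), and Pdk4, a kinase that inhibits pyruvate dehydrogenase, had 6.71 and 3.49 RPM, with a log2 ratio of -0.94 (-1.30 to -0.58). Fabp1 and Cpt1a stood near 0. Fabp1, the liver fatty acid binding protein, had a log2 ratio of 0.04 (0.02 to 0.06), and Cpt1a, which admits fatty acids to mitochondria, one of -0.04 (-0.09 to 0.01). The 3 highest were Acadm at 0.21, Acadl at 0.16 and Cpt2 at 0.14.

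Among the receptors and cofactors of this pathway, the lowest ratio was that of Pparg, at -2.13, and the highest that of Ppargc1b, at 0.44. Ppara, which encodes PPARα, had 98.2 RPM in MHs against 84.0 in SHs, and the log2 ratio was -0.23 (-0.31 to -0.14). Its partner Rxra had 302.5 and 344.4 RPM, with a log2 ratio of 0.19 (0.14 to 0.23). Of the 15 genes, 1 was called lower, Pparg, which is near the background of 6.2% of all genes, and 0 were called higher, with a median of 0.11. Pparg had 81 reads in MHs against 46 in SHs, and the log2 ratio was -2.13 (-2.69 to -1.60), and the part of other cell types in it was not tested. Hnf4a, a transcription factor of hepatocytes, was at 0.04 (0.003 to 0.07), Ppargc1a at 0.16 (-0.13 to 0.45), Ppargc1b at 0.44 (0.16 to 0.74) and Lpin1 at 0.20 (0.13 to 0.27). The cofactors Ncoa1, Ncoa2, Ncor1, Med1 and Sirt1 had log2 ratios between 0.09 and 0.15. For Ncoa1, Ncoa2, Sirt1, Rxrb, Rxrg and Ppard, the interval included 0.

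**Figure D5:**
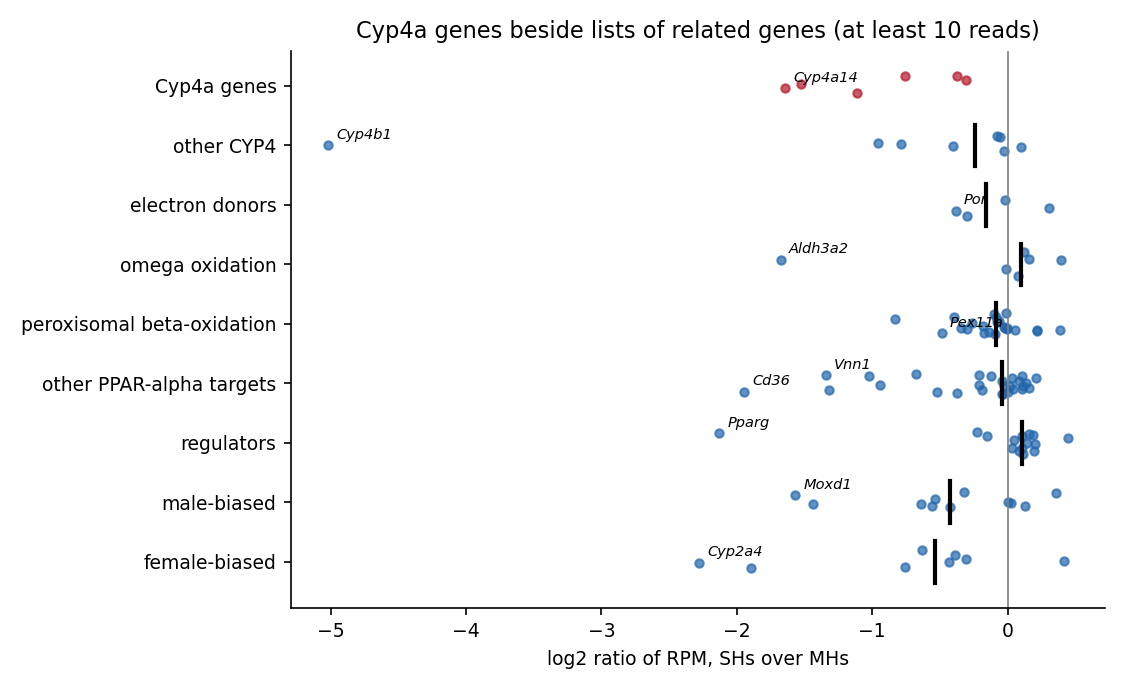
Log2 ratio of RPM in SHs over MHs for the Cyp4a genes (red) and for genes of related lists (blue) with at least 10 reads, 1 point per gene with vertical scatter for legibility, and black bars at the median of each list. Aldh3a2 at -1.68 stands apart from the other genes of omega-oxidation, while the genes of peroxisomal beta-oxidation lie between -0.83 and 0.38.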

How the data were processed

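Poly(A) RNA of 1 sample of MHs and 1 sample of SHs was read on the Ion Proton platform. The authors deposited whole read counts per gene symbol, without normalization. The methods describe trimming, alignment to mm10 in CLC Genomics Workbench with at most 2 mismatches, and RPKM. The program and annotation behind the deposited counts are not given in the sources used here, nor is strandedness.

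RPM was computed from each library's total counted reads, and log2 ratios after 0.5 reads were added to each count, in Python 3.11.15 (numpy 2.4.6, pandas 2.3.3, scipy 1.17.1). Intervals at 95% were Clopper-Pearson, from the SH share of a gene's reads, or Poisson. No test was made, since there was 1 library per condition. Coordinates, exon lengths and transcripts came from GENCODE M21, which held 39469 of the 43280 symbols. Coding sequences were aligned with Biopython 1.88. The calculation was tested on simulated data.

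The members and gene lists were chosen with earlier results of these data known. Named genes were the members, all genes of the lists of CYP4, electron donors, omega oxidation and regulators, the 3 lowest and 3 highest ratios of the other lists among genes with at least 200 reads, some fixed genes (Ehhadh, Cpt1a, Fabp1 and Cyp2d9, with others not reported here), the 5 nearest Cyp genes and the neighbours within 200 kb. Acot1, Fgf21, Cidec, Cyp2a4, Cyp2b9, Slco1a1, Elovl3, Hao2, Sult3a1 and the markers at 0 were named after their values were seen. Alternatives were scaling by TMM (edgeR 4.0.16) or size factors (DESeq2 1.42.0) under R 4.3.3, by totals that left out the 10 most read genes or kept protein-coding genes alone, 2 added reads, other read minimums and folds, and sums without 1 member.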

Additional observations from a re-analysis of the deposited data

How the results depend on the processing

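No paired analysis was possible because MHs and SHs had a single library each.

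Under TMM, DESeq2's size factors, totals that left out the 10 most read genes or totals of protein-coding genes, and with 2 reads added, every one of the 6 members with at least 10 reads stayed within its interval. The scalings shift all genes alike, by 0.009 to 0.032 on the log2 scale. Across these settings, the log2 ratio of Cyp4a14 lay between -1.64 and -1.61, that of Cyp4a10 between -1.12 and -1.08 and that of Cyp4a12a between -0.37 and -0.34. The Cyp4a sum moved beyond its counting interval when 1 of 4 members was left out, to -0.75 without Cyp4a12a, -0.58 without Cyp4a12b, -0.46 without Cyp4a10 and -0.46 without Cyp4a14, since the sum is weighted by reads. Under the lower alternative fold threshold, 5 Cyp4a genes were called lower, and at 2-fold 3. The share of all genes called at these folds was not computed. With at least 200 reads, 2.1% of all genes were called lower. The numbers called lower were then 0 for the other CYP4 genes, 0 for the regulators, 1 for the female-biased genes and 4 for the other PPARα targets. The genes of these lists no longer called had fewer than 200 reads. Depth limits Cyp4a31, whose ratio has the widest interval of the 6.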

Other observations

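Genes with a known sex bias in mouse liver were examined because Cyp4a12a and Cyp4a12b are male-biased. Of 11 male-biased genes, 3 were called lower in SHs and 0 higher, with a median log2 ratio of -0.43. All 11 had at least 200 reads, and among all genes with as many reads 2.1% were called lower. Cyp2d9 had 1329 RPM in MHs against 1063 in SHs, and the log2 ratio was -0.32 (95% interval -0.34 to -0.30), beside -0.37 for Cyp4a12a. Slco1a1 and Elovl3 had log2 ratios of -0.55 and -0.54. The 3 called lower were Moxd1 at -1.57 (-1.66 to -1.47), Susd4 at -1.44 (-1.70 to -1.18) and Hsd3b5 at -0.64 (-0.70 to -0.58). The 3 highest were Gstp1 at 0.36, Mup20 at 0.13 and Ugt2b38 at 0.02, so the genes of this list did not all lie on 1 side of 0.

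Of 14 female-biased genes, 8 had at least 10 reads, 3 of which were called lower and 0 higher, beside 6.2% and 3.5% of all genes with at least 10 reads, with a median of -0.53. Their summed level was 58.2 RPM in MHs against 41.8 in SHs, and Hao2 and Sult3a1 had 0 reads in both libraries. Cyp3a41a was called lower, at -0.63 (-0.86 to -0.40), as were Cyp2a4 and Cyp2b9, which had 55 and 33 reads in MHs. Cyp3a41b, Cyp3a44 and Cyp3a16 had log2 ratios of -0.43, -0.38 and -0.31, and Cyp17a1 one of 0.42 (-0.01 to 0.89). Cyp3a41a, Cyp3a41b, Cyp3a44 and Cyp3a16 are near copies of other Cyp3a genes, so their reads are uncertain.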
